A study of Homo sapiens with 7 samples.

Results

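The comparison described here set NCI-H520 cells given an shRNA against PARN beside cells given an shRNA against CNOT6, so that an shRNA aimed at PARN, a deadenylase that acts on its own, was read against one aimed at a catalytic subunit of the CCR4-NOT complex. NCI-H520 is a long-established human cell line of squamous lung carcinoma origin. The pair consisted of 2 of the 7 arrays of the series, hybridised in slide row 1, and no control array entered the difference. Genes were kept where a named probe was well above background on both arrays and its mean signal lay above the median of such probes, which left 10950 of 19063 genes named on the array. The median fell at a mean level of -2.59 on the log2 scale.

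Both groups carried a pLKO.1 plasmid with a MISSION shRNA, delivered as 6 µg of DNA in X-fect liposomes. Puromycin was added at 6 µg/mL after 12 h and the cells were harvested at 72 h. The labels give an accession as the target of each shRNA; the one for PARN names that gene, and the one for CNOT6 lacks a digit and was read with the missing zero restored. The remaining 5 arrays, used only to show where each value lay, carried an empty vector, a non-target shRNA, or shRNAs against CNOT6L, CNOT7 and NOC (nocturnin). The empty vector and non-target arrays shared slide row 1 with the pair, while the CNOT6L, CNOT7 and NOC arrays were in slide row 2. A range over these 5 arrays thus mixes both slide rows, and the part of the slide row in it was not tested. Every group had 1 array. There was therefore no replicate check and no test between conditions, and calls below are by size alone, at 2-fold or more. The errors given are the scanner software's error of a difference or the spread between spots of the same probe, which cover printing and reading and not the spread between cultures.

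Deadenylases remove the poly(A) tail of mRNAs, usually the first step of their decay. PARN is an exonuclease that also trims the 3′ ends of small nucleolar RNAs and of the telomerase RNA. CNOT6 and its paralog CNOT6L are exonuclease-endonuclease-phosphatase type catalytic subunits of CCR4-NOT, which hold the same position in the complex, while CNOT7 and CNOT8 form the other catalytic pair. CCR4-NOT is recruited to AU-rich mRNAs, among them those of cytokines and chemokines, by proteins such as ZFP36.

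PARN mRNA was 2.12-fold lower on the PARN array than on the CNOT6 array, and CNOT6 mRNA differed little between them. Levels are log2 values relative to the 75th percentile of each array. PARN mRNA stood at 1.06 with empty vector, 0.87 with non-target shRNA, -0.16 with PARN shRNA, 0.93 with CNOT6 shRNA, 0.59 with CNOT6L shRNA, 0.90 with CNOT7 shRNA and 0.82 with NOC shRNA. The PARN array was the lowest of the 7, and the difference between the pair was -1.09, with a software error of 0.14 and spot differences of -1.13 and -1.04. CNOT6 mRNA stood at 0.42 with empty vector, 0.32 with non-target shRNA, 0.43 with PARN shRNA, 0.21 with CNOT6 shRNA, 0.62 with CNOT6L shRNA, 0.74 with CNOT7 shRNA and 0.72 with NOC shRNA. The CNOT6 array was also the lowest of the 7 for its target, but its difference from the PARN array, 0.22, was little above the software error of 0.14 and far under 2-fold. In a bulk sample, fewer cells holding an mRNA and less of that mRNA per cell cannot be told apart.

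**Figure D1:**
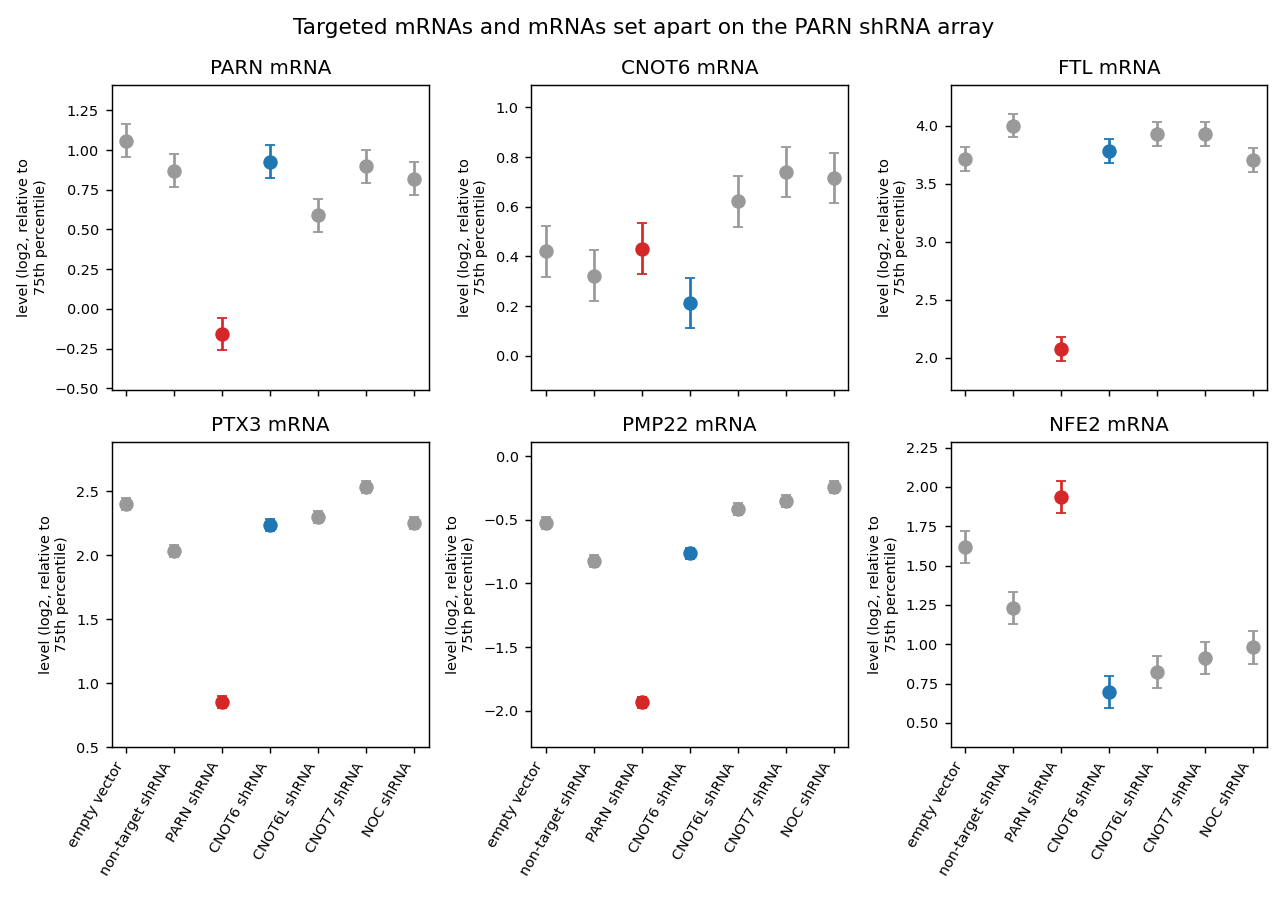
Level of 6 mRNAs on each of the 7 arrays (log2, relative to the 75th percentile of the array), with the scanner software's error as bars, the PARN array in red and the CNOT6 array in blue. PARN, FTL, PTX3 and PMP22 were lowest on the PARN array, NFE2 was highest there, and CNOT6 was lowest on the CNOT6 array by a small margin.

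After scaling, more genes were higher with CNOT6 shRNA than with PARN shRNA. At 2-fold, 51 genes (0.466% of the 10950 kept) were higher with CNOT6 shRNA and 14 (0.128%) were higher with PARN shRNA. Without scaling for the brightness of the arrays the balance turned, to 7 and 961 genes. At 1.5-fold the counts were 334 (3.05%) and 171 (1.56%). Over all 17296 kept probes, named or not, 164 (0.948%) were at least 2-fold higher with CNOT6 shRNA and 29 (0.168%) with PARN shRNA. The median gene differed by -0.01 and the SD over genes was 0.29, so that 2-fold was well outside the bulk of the genes. Of the 51 genes, 26 were in the dimmest of 4 equal brightness bins of the kept genes and 3 in the brightest. Among the probes for long intergenic noncoding RNAs, 60 of 1621 (3.70%) were higher with CNOT6 shRNA and 10 with PARN shRNA, and their median difference was -0.25. The CNOT6 array was the dimmest of the 7, with a 75th percentile of 1366 against 2181 on the PARN array, and the part of this gap in the dim calls was not tested.

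**Figure D2:**
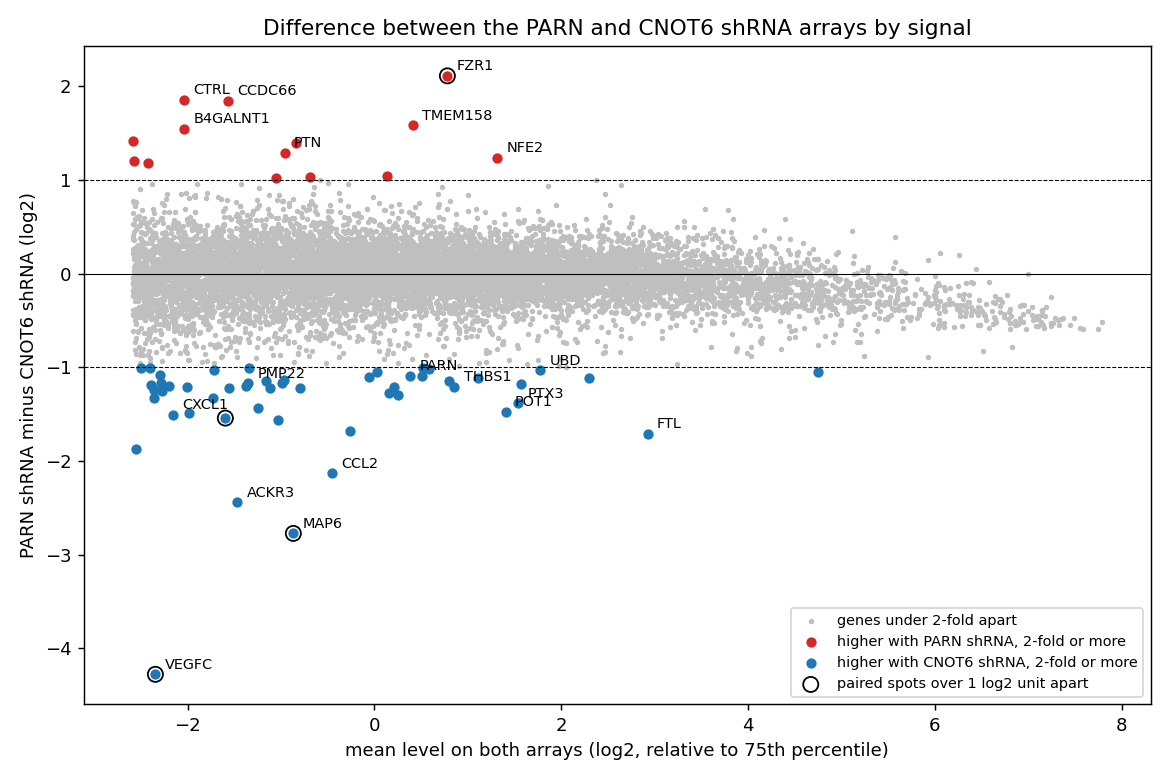
Difference between the arrays (PARN shRNA minus CNOT6 shRNA, log2) against the mean level of both, for the 10950 kept genes. Coloured points are the 14 and 51 genes past the dashed 2-fold lines; black rings mark 4 genes whose paired spots lay over 1 log2 unit apart. The brightest genes sit slightly below 0.

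Several of the largest values rest on a single spot. VEGFC, a lymphatic growth factor, had the largest difference, -4.28, but its spots differed by -8.49 and -0.07. Its level on the PARN array (-4.48) was under the limit of -2.59, so it was kept only through the CNOT6 array. MAP6, a microtubule-stabilising protein, differed by -2.77 with spots at -5.09 and -0.46. FZR1, an activator of the anaphase-promoting complex, led the genes higher with PARN shRNA at 2.11 and its spots gave 3.80 and 0.42. IAPP, the islet amyloid peptide, differed by -1.54 with spots at -2.32 and -0.76. For each of these 4 the smaller spot difference was under 2-fold, and they are included in the counts that follow. Of the 24 genes higher with CNOT6 shRNA that were read on several spots, 15 were past 2-fold on every spot, and of the 4 higher with PARN shRNA, 3 were.

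The other 5 arrays give a range in which each member of the pair can be placed. These genes were picked for a difference between the pair, which by itself favours values outside that range. The share over all kept genes was not counted, so the counts do not show which shRNA changed a gene. Of the 51 genes higher with CNOT6 shRNA, 21 had only the CNOT6 array outside the range of the other 5 arrays, 11 only the PARN array, 11 both and 8 neither. Of the 14 genes higher with PARN shRNA, 5 had only the PARN array outside that range, 4 only the CNOT6 array and 5 both.

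**Figure D3:**
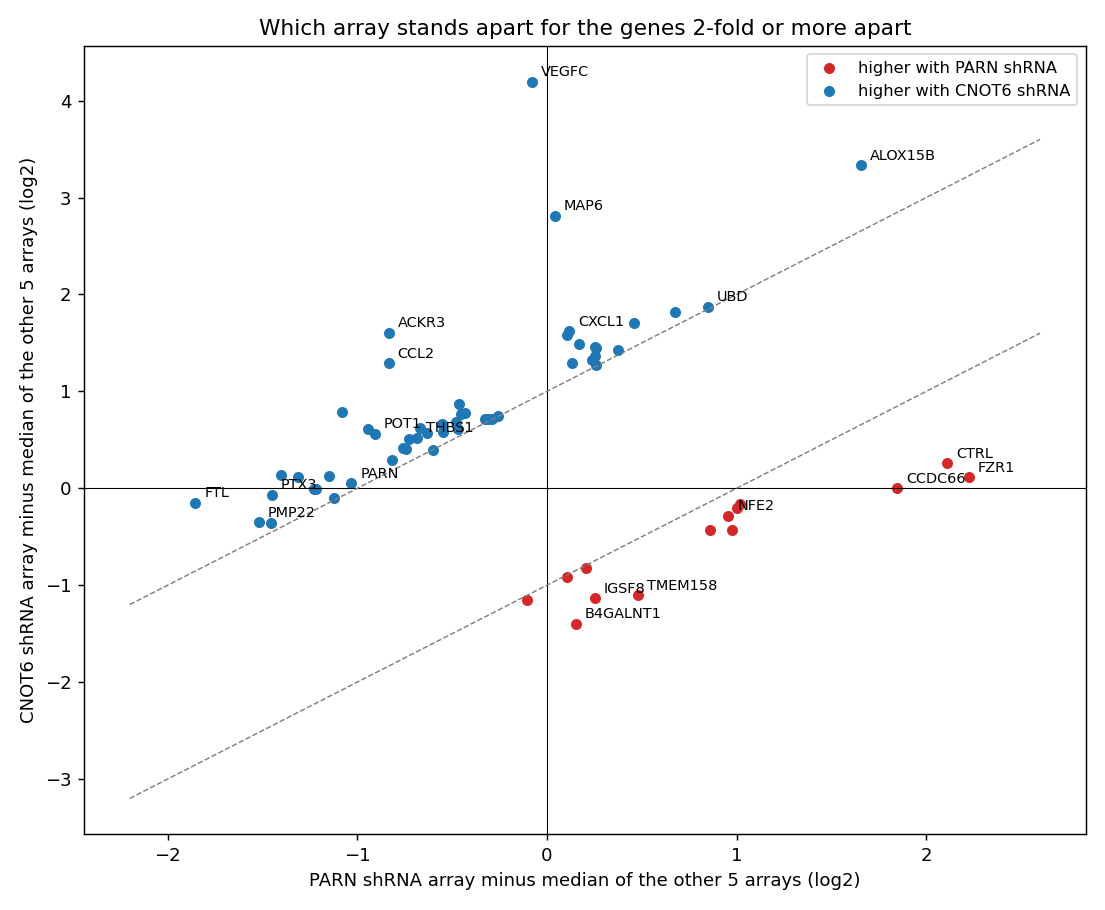
Each of the 65 genes at least 2-fold apart, placed by its level on the PARN array (horizontal) and on the CNOT6 array (vertical), both as log2 differences from the median of the other 5 arrays; dashed lines mark 2-fold between the pair. FTL, PTX3, PMP22 and PARN lie left of the centre near a vertical value of 0, CXCL1 lies above it, and CCL2 and ACKR3 lie up and to the left.

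A first set was low on the PARN array with the CNOT6 array among the rest. FTL encodes the light chain of ferritin, the iron-storage protein. It was read by 2 probes. By the first, FTL mRNA stood at 3.71 with empty vector, 4.0 with non-target shRNA, 2.07 with PARN shRNA, 3.78 with CNOT6 shRNA, 3.93 with CNOT6L shRNA, 3.93 with CNOT7 shRNA and 3.71 with NOC shRNA. The PARN array stood alone below the others, which all lay between 3.71 and 4.0. The probes differed by -1.71 (3.26-fold, software error 0.14) and -1.85, and FTL was 1 of 2 genes, with CXCL2, of which several kept probes were all past 2-fold. The heavy chain, FTH1, differed by -0.31 and the transferrin receptor TFRC, which brings iron into the cell, by -0.76, both under 2-fold. Of the 9 kept genes of the ferritin and iron list, FTL alone was past 2-fold, and the list's median was -0.14. Over all kept genes, 0.466% were 2-fold higher with CNOT6 shRNA, so 1 gene does not describe the list.

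PTX3 and PMP22 repeated this arrangement on probes printed 10 times, and were chosen for naming after their values were seen. PTX3, a secreted pattern-recognition pentraxin, had a mean over spots of 0.85 with PARN shRNA (SD between 10 spots 0.08) and 2.23 with CNOT6 shRNA (SD 0.06), while the other arrays lay from 2.04 to 2.53. PMP22, a membrane protein of myelin and of epithelial junctions, had a mean of -1.93 with PARN shRNA (SD 0.06) and -0.76 with CNOT6 shRNA (SD 0.08), with the others from -0.82 to -0.24. The differences were -1.39 and -1.17, and no spot of either probe on the PARN array reached the lowest spot on the CNOT6 array. THBS1, a matrix glycoprotein, was the sole member past 2-fold among 12 kept genes of the epithelial-mesenchymal list, beside 0.466% of all kept genes. It lay below the other arrays with PARN shRNA (0.26) and above them with CNOT6 shRNA (1.46), the others spanning 0.82 to 1.08. Its second kept probe differed by -0.83, under 2-fold.

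Chemokine mRNAs were among the genes higher with CNOT6 shRNA. Of 27 genes on the list of inflammatory cytokines and chemokines, 13 were kept, 4 were at least 2-fold higher with CNOT6 shRNA (0.466% of all kept genes were) and none with PARN shRNA (0.128%). For 3 of the 4, CXCL1, CXCL2 and CXCL3, the level on the PARN array was under the brightness limit, so that they were kept only through the array where they were high and had to differ. The count is therefore a description of these genes and not of the list. With no brightness limit 22 members could be read, and 6 were at least 2-fold higher with CNOT6 shRNA against 2.19% of all 16730 genes; the added ones were CCL20 (-1.42) and IL6 (-1.19), both dim. The median of the 22 was -0.35, beside -0.05 for all genes. The 4 were CCL2, which attracts monocytes, and CXCL1, CXCL2 and CXCL3, neutrophil attractants encoded in a chemokine cluster on chromosome 4. CXCL3 was not among the genes to be named by rule and was added after its value was seen.

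CCL2 mRNA was 4.37-fold lower with PARN shRNA than with CNOT6 shRNA. On a probe printed 10 times it stood at -0.68 with empty vector, -0.71 with non-target shRNA, -1.52 with PARN shRNA, 0.61 with CNOT6 shRNA, -0.52 with CNOT6L shRNA, -0.85 with CNOT7 shRNA and 0.06 with NOC shRNA. Both arrays of the pair were outside the others, on opposite sides, and the 8 spots read on both differed by between -2.21 and -2.06. The spots of 1 array had an SD of 0.05 with PARN shRNA and 0.07 with CNOT6 shRNA.

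CXCL1 mRNA stood at -2.89 with empty vector, -3.03 with non-target shRNA, -2.90 with PARN shRNA, -1.40 with CNOT6 shRNA, -3.97 with CNOT6L shRNA, -3.02 with CNOT7 shRNA and -2.29 with NOC shRNA. Here the PARN array lay beside the control plasmids and the CNOT6 array was above all others. The difference was -1.5, or 2.83-fold, with spots at -1.51 and -1.498. CXCL2 differed by -1.48 and -1.92 on its 2 probes and CXCL3 by -1.32, with the CNOT6 array again the highest of the 7 and the PARN array within the range of the others. The 3 mRNAs are related in sequence, and reading of one by the probe of another was not tested. CXCL1, CXCL2 and CXCL3 were dim on every array. Over all genes higher with CNOT6 shRNA, 15 of 51 were at or under the limit on the PARN array, as were 5 of the 14 higher with PARN shRNA on the CNOT6 array.

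**Figure D4:**
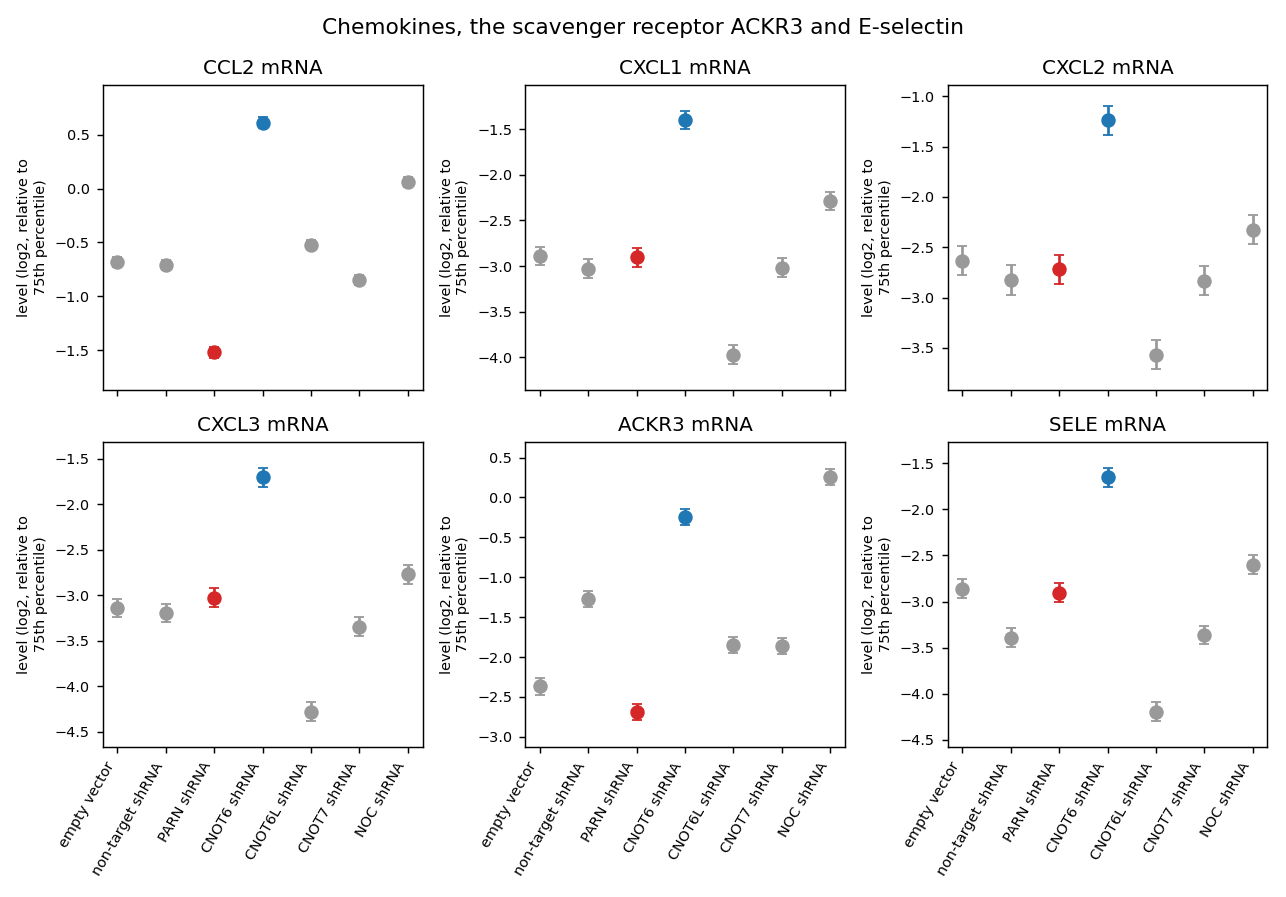
Level of 6 mRNAs on each of the 7 arrays (log2, relative to the 75th percentile of the array), with the scanner software's error as bars, the PARN array in red and the CNOT6 array in blue. CCL2, CXCL1, CXCL2, CXCL3 and SELE were highest on the CNOT6 array, ACKR3 was highest on the NOC array, and CCL2 and ACKR3 were lowest on the PARN array. All but CCL2 were under the brightness limit on the PARN array.

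The CXCL promoters are shown because the 3 genes moved together and share a sequence just before the start. In the 250 bases before the annotated start (RefSeq, GRCh38.p14), the letters GGANTTTCC, which form the core of a known binding motif of NF-κB, a transcription factor of inflammation, were searched on both strands. The motif was chosen after the values were seen. It is in capitals below, each written 5′ to 3′ on the gene's own strand, for CXCL1 at chr4:73869143-73869392 on the plus strand, CXCL2 at chr4:74099196-74099445 on the minus strand and CXCL3 at chr4:74038690-74038939 on the minus strand.
CXCL1: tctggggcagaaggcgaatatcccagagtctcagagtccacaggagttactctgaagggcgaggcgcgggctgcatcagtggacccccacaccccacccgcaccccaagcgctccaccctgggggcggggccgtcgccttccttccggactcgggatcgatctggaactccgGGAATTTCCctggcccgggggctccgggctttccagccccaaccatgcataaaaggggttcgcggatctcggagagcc
CXCL2: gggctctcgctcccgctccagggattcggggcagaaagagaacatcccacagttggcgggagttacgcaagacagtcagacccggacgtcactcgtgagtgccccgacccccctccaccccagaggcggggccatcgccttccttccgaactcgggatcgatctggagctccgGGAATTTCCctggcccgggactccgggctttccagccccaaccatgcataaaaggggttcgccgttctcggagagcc
CXCL3: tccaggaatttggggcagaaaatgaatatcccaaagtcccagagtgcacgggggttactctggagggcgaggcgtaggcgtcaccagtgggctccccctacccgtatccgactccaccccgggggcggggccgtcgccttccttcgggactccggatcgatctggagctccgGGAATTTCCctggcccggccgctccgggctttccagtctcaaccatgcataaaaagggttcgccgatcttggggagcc
The match began 78 bases before the start in CXCL1 and CXCL3 and 77 in CXCL2. It was held by 1.45% of all 35116 promoter entries, by 1.54% of those of kept genes, by 3 of 47 entries of genes higher with CNOT6 shRNA, which were these 3, and by 1 of 13 entries of genes higher with PARN shRNA, that of VWA8. The letters around the match are alike in the 3 CXCL promoters, so these do not count as separate finds. Over the whole 250 bases without gaps, CXCL1 and CXCL3 were identical at 64.8% of positions. CXCL1 and CXCL2 were at 46.8% and CXCL2 and CXCL3 at 44.0%. CCL2 and ACKR3 had no promoter entry and were not searched. A match describes the letters and shows no binding.

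The other kept members of the list were under 2-fold. NFKBIA, the inhibitor of NF-κB, differed by -0.33, TNFAIP3 by -0.07, TNF by -0.17, CXCL5 by -0.01, CSF1 by -0.56 and IL11 by 0.06. CXCL8, another neutrophil attractant, was not well above background on both arrays. Outside the list, ACKR3, a scavenging receptor for CXCL12, was 5.43-fold lower with PARN shRNA, at -2.37 with empty vector, -1.27 with non-target shRNA, -2.69 with PARN shRNA, -0.25 with CNOT6 shRNA, -1.85 with CNOT6L shRNA, -1.86 with CNOT7 shRNA and 0.25 with NOC shRNA. The PARN array was the lowest and the CNOT6 array the next to highest. E-selectin (SELE), an adhesion molecule of activated endothelium, differed by -1.25, and UBD, a ubiquitin-like protein, by -1.03, both added after their values were seen. On the PARN array ACKR3 (-2.69) and SELE (-2.90) were under the brightness limit. Like CXCL1, CXCL2 and CXCL3, these genes were kept only through the array where they were high. UBD was above the range of the other 5 arrays on both members of the pair.

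Further genes named by size had mixed arrangements. ALOX15B, a lipoxygenase, differed by -1.68, yet stood at 1.01 with non-target shRNA, above both the PARN array (-1.10) and the CNOT6 array (0.58), and at -1.73 with empty vector. FIBCD1, a chitin-binding membrane protein, differed by -1.87 on 1 spot and C6orf15 by -1.56 on 1 spot, both with the PARN array below and the CNOT6 array above all others. FIBCD1 was under the brightness limit on the PARN array (-3.49) and was kept only through the CNOT6 array. For C6orf15 the CNOT6 array (-0.25) lay close to the non-target array (-0.36). POT1, the single-stranded DNA-binding subunit of shelterin at telomere ends, was 2.77-fold lower with PARN shRNA. It stood at 1.63 with empty vector, 0.31 with non-target shRNA, 0.67 with PARN shRNA, 2.15 with CNOT6 shRNA, 2.37 with CNOT6L shRNA, 1.57 with CNOT7 shRNA and 1.58 with NOC shRNA. The non-target array was lower than the PARN array, so neither member of the pair lay outside the rest.

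The genes higher with PARN shRNA were fewer and shared no fixed list. CTRL, a chymotrypsin-like protease, stood at -1.11 with PARN shRNA, -2.96 with CNOT6 shRNA and between -3.39 and -2.96 on the other 5 arrays. CCDC66, a centrosome and cilium protein, stood at -0.65 with PARN shRNA, -2.49 with CNOT6 shRNA and between -2.60 and -2.22 elsewhere. Both were high on the PARN array alone, with differences of 1.86 and 1.85, each on 1 spot with a software error of 0.20. NT5DC3 and DENND1A had the same arrangement at 1.20 and 1.18. On the CNOT6 array CTRL (-2.96), NT5DC3 (-3.18) and DENND1A (-3.01) were under the brightness limit. These genes were kept only through the array where they were high and had to differ.

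NFE2, a transcription factor of megakaryocytes and red cell precursors, was 2.36-fold higher with PARN shRNA. It stood at 1.62 with empty vector, 1.23 with non-target shRNA, 1.94 with PARN shRNA, 0.70 with CNOT6 shRNA, 0.82 with CNOT6L shRNA, 0.92 with CNOT7 shRNA and 0.98 with NOC shRNA. The pair was at the opposite ends of the 7 arrays, and so it was for PTN, the growth factor pleiotrophin, at 1.29 (spots at 1.25 and 1.33), for B4GALNT1, a ganglioside synthase, at 1.55 (spots at 1.48 and 1.62), for TMEM158 at 1.59 and for VWA8 at 1.41. By contrast IGSF8, a tetraspanin partner, was within the other arrays with PARN shRNA (-0.14) and below all of them with CNOT6 shRNA (-1.53). Its kept probes differed by 1.39 and 0.90. TMEM230 was arranged likewise, at 1.04 and 0.86 on its kept probes. B4GALNT1 (-2.81) and VWA8 (-3.29) were under the brightness limit on the CNOT6 array and were kept only through the PARN array. For B4GALNT1 the PARN array (-1.26) lay close to the CNOT7 array (-1.31), so mainly the CNOT6 array stood apart.

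Few genes of the machinery to which both targets belong were past 2-fold or 1.5-fold, as held for kept genes at large. Of all kept genes, 0.128% were 2-fold higher with PARN shRNA and 0.466% with CNOT6 shRNA. At 1.5-fold the shares were 1.56% and 3.05%, so the counts below do not set these lists apart. Of 11 kept deadenylases PARN alone was past 2-fold. CNOT7 differed by -0.23, CNOT6L by -0.12, ANGEL1 by -0.13, PAN2 by -0.09, ANGEL2 by 0.03, TOE1 by 0.13, CNOT8 by 0.14, PDE12 by 0.14 and PAN3 by 0.26. NOCT was dimmer than the limit, at -4.51 and -4.47. None of 23 kept CCR4-NOT subunits and adaptors was past 2-fold or 1.5-fold. They ranged from -0.23 for the antiproliferative adaptor BTG2 to 0.41 for the RNA-binding protein SAMD4B, with the scaffold CNOT1 at 0.35 and ZFP36 at -0.01, and their median was 0.07. None of 21 poly(A) polymerases and poly(A)-binding proteins or 37 decapping, exosome and decay factors was past 1.5-fold. In the dyskerin, telomerase and shelterin list, POT1 was the only one of 15 past 2-fold, the telomerase RNA TERC differed by 0.31 and dyskerin (DKC1) by 0.04. The 19 kept snoRNA host genes had a median of -0.15 and none was past 2-fold.

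Of the mRNAs that the study text links to PARN, those kept were all under 1.5-fold, as were most kept genes. Over all kept genes, 1.56% were 1.5-fold higher with PARN shRNA and 3.05% with CNOT6 shRNA. JUN differed by -0.47, FOS by -0.41, TNF by -0.17, PLAU by 0.00 and VEGFA by 0.10, and CDKN1A and CXCL8 were not kept. In the wider list of AU-rich and immediate early mRNAs, 26 were kept with a median of -0.16, and none was past 1.5-fold. The study read its changes against control plasmids and wild-type cells, and not against a CNOT6 shRNA. Among the genes it singles out, which also include C4orf6, those read here were PTGIR, AATK, FGFBP2, DPPA3 and GUCA1B, the last pair from its NOC shRNA. Of these GUCA1B alone was kept and differed by -0.14. PTGIR, above background on both arrays but dim, stood at -5.38 with PARN shRNA and -6.33 with CNOT6 shRNA. With empty vector it stood at -5.14, above the PARN array, and with non-target shRNA at -7.42. AATK stood at -3.61 and -4.27 on its probe printed 10 times, beside -3.80 with empty vector and -4.47 with non-target shRNA. FGFBP2 stood at -3.57 and -3.53, beside -3.52 with empty vector and -5.71 with non-target shRNA. DPPA3 was not well above background on both arrays.

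Across the 37 lists, 33 had 3 or more kept genes and 5 held a gene past 2-fold, and the list medians ran from -0.46 to 0.15. The lowest were heat shock (-0.46, 16 genes), cytosolic ribosomal proteins (-0.44, 78 genes) and MHC class I (-0.38, 10 genes). All 78 ribosomal protein genes were below 0, against 52.0% of all kept genes, though none was past 2-fold and 4 were past 1.5-fold, where 3.05% of all kept genes were higher with CNOT6 shRNA. These mRNAs were among the brightest on the arrays, where all genes sat slightly low: the brightest of the 4 bins had a median of -0.08. With the difference corrected on mean signal by loess, the ribosomal median was -0.10 with 69 of 78 below 0, that of heat shock -0.21 and that of MHC class I -0.26, beside 0.03 for all genes.

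The MHC class I and chaperone values were uneven within their lists. HLA-B differed by -0.79 and B2M, the shared light chain, by -0.79, while the peptide transporter subunit TAP2 differed by 0.01 and the activator NLRC5 by 0.26. Among chaperones the stress-inducible HSPA6 differed by -0.69, HSP90AA1 by -0.59 and the small chaperone HSPB1 by 0.08. By their brightest probes HLA-B, B2M, HSPA6 and HSP90AA1 were past 1.5-fold and none was past 2-fold. The other kept probes of HSP90AA1 (-0.36 and -0.24) and HLA-B (-0.35) were under 1.5-fold, while that of HSPA6 (-0.84) was past it. All these genes were picked out after their values were seen. Lists of cell cycle, p53, NRF2, circadian and lipid synthesis genes had medians between -0.08 and 0.06 and no gene past 2-fold. Of all kept genes, 0.594% were past it.

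**Figure D5:**
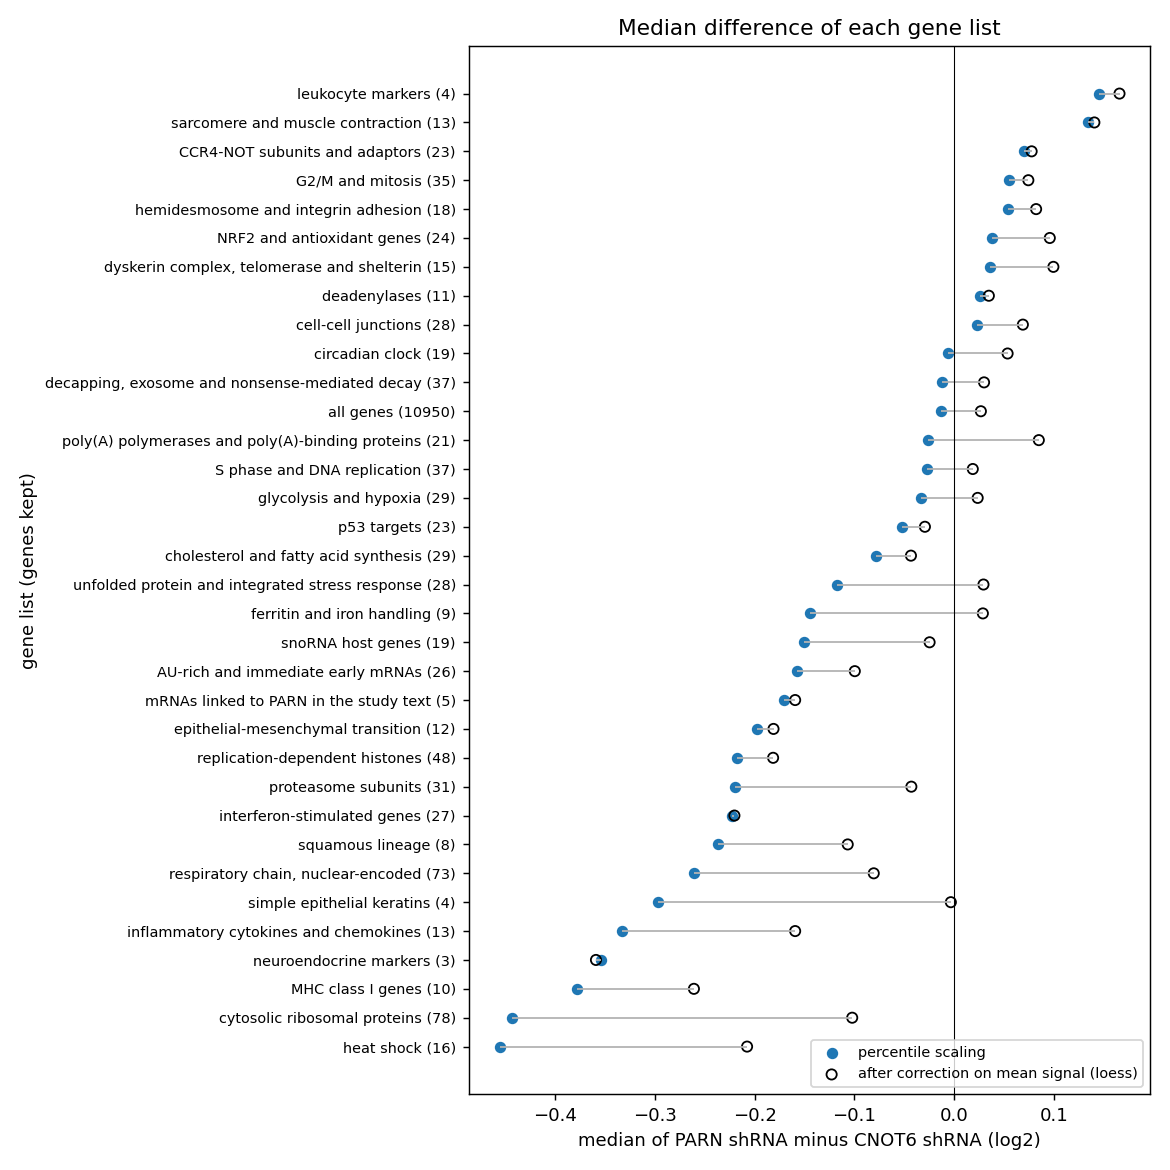
Median difference (PARN shRNA minus CNOT6 shRNA, log2) of each gene list with 3 or more kept genes, with the number of kept genes in brackets, under percentile scaling (filled) and after loess on mean signal (open). The ribosomal median moves from -0.44 to -0.10 and the heat shock median from -0.46 to -0.21, while that of interferon-stimulated genes stays at -0.22.

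The label of the line was read against lineage markers. Of all probes, 82.9% were above background on the PARN array and 84.7% on the CNOT6 array. Being above background is therefore a weak mark of a cell type. Of 15 squamous genes, 11 were above background on each of the pair, with SOX2, a lineage transcription factor, at 5.15 and 5.45, but TP63, KRT5 and KRT14 were not well above background on either. Of other cell types, 3 of 6 fibroblast and 4 of 5 endothelial markers were above background on both and none was bright enough to be kept. All 6 leukocyte markers were above background on both, with summed levels of 3.96 and 3.99, most of it from CD14 at 3.79 and 3.85. All 5 adenocarcinoma and all 5 neuroendocrine markers were also above background on both, with summed levels of -0.48 and -0.22 for the former and 1.06 and 1.29 for the latter. The part of these in the differences was not tested. SELE, an endothelial gene outside the marker list, stood at -2.90 and -1.65.

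By the same rule, the pair of control plasmids gave 237 genes 2-fold apart of 11056 kept and the CNOT6L and CNOT7 shRNA pair of slide row 2 gave 8 of 11467. The 65 of 10950 found here (0.594%) lay between these, under the 2.14% that separated the 2 arrays with no deadenylase targeted, and no test of these shares was possible with 1 array each.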

How the data were processed

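Single-colour Agilent SurePrint G3 arrays had been read by the authors with Agilent Feature Extraction 10.7.3.1, and the deposited scanner files hold spot intensity, with a processed signal after background subtraction. The deposited series table holds log2 values with each probe's median over arrays removed, and served as an alternative. Groups came from sample titles. Values here are log2 of the processed signal minus the array's 75th percentile. Control and outlier spots were dropped and the spots of each of 42405 probes averaged. A probe was above background with 50% or more of its spots marked well above it. On the pair 34592 probes were above background and the brighter 17296 were kept, 13538 of them named through RefSeq (GRCh38.p14). The brightest probe stood for a gene. No saturated gene spot was found, 0 on every array. The number of arrays limits the precision. Genes named by rule were the targets, the other deadenylases and CCR4-NOT members, genes the study singles out, the 12 largest differences each way, genes with several probes all past 2-fold, and up to 3 list members each way. The members and the 37 lists were chosen with earlier results of these data known. Python 3.11.15, R 4.3.3 and limma 3.58.1 were used.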

Additional observations from a re-analysis of the deposited data

How the results depend on the processing

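No paired analysis was possible because each group had 1 array and the pair shared a single replicate number. There was no replicate to leave out. The scaling mattered most. With no scaling, which moved the median of kept probes by 0.68, 961 genes and 1698 probes were higher with PARN shRNA and 7 genes and 24 probes with CNOT6 shRNA, PARN mRNA differed by -0.41 and CNOT6 mRNA by 0.89. Without scaling all 24 list medians below 0, of 33, turned positive. The 11 of them that had been at least as large as the typical software error of 0.20 became, for inflammatory cytokines and chemokines 0.34, interferon-stimulated genes 0.45, MHC class I 0.30, squamous lineage 0.44, simple epithelial keratins 0.38, replication-dependent histones 0.46, ribosomal proteins 0.23, respiratory chain 0.41, proteasome 0.46, heat shock 0.22 and neuroendocrine markers 0.32. Without the brightness filter, 63 genes and 175 probes were higher with PARN shRNA and 366 genes and 1384 probes with CNOT6 shRNA. Among the brightest 8648 probes these were 4, 8, 18 and 43. At 1.5-fold, 357 and 938 probes and 171 and 334 genes were past the threshold, and at 4-fold 2 and 12 probes and 1 and 4 genes. With outlier spots kept, 53 probes and 22 genes were higher with PARN shRNA. Quantile normalization of 7 arrays gave 45 such probes and normexp 18. All other counts stayed within 1.5 times of those reported. Under normexp, DENND1A (0.86) and NT5DC3 (0.87) fell under 2-fold, as did TMEM230 (0.95) with the mean over its kept probes. With no scaling 6 named genes did: CXCL1 (-0.83), CXCL2 (-0.81), POT1 (-0.80), C6orf15 (-0.89), IAPP (-0.87) and THBS1 (-0.53). For the 25 named genes other than the targets, no direction changed in 300 recomputed values. The series table gave 64 of the 65 genes again, loess 60, and quantile normalization of the pair 58. With no replicates and 1 array for each target, differences between cultures were not measured. Whether another hairpin against the same target would give these values was not tested.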
